A study of Drosophila melanogaster with 30 samples.

Results

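The glutathione transferases were taken as every row of the Drosophila counts table whose gene symbol is Gst followed by a class letter (D, E, O, S, T or Z) and a number. This gave 35 genes out of 14326, with 11 of the delta class, 14 of epsilon, 3 of omega, 1 of sigma, 4 of theta and 2 of zeta. All 35 passed the filter on low counts, which kept 13190 genes for testing. A related omega gene, se, has a name outside this pattern and is described with the other glutathione enzymes.

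Glutathione transferases join the tripeptide glutathione to reactive, fat-soluble molecules, which makes them easier to excrete. In insects the delta and epsilon classes expanded and are best known for detoxifying insecticides, plant toxins and products of lipid peroxidation. The sigma, omega, theta and zeta classes are shared with many other animals, and some of their members have housekeeping roles such as tyrosine breakdown or the recycling of antioxidants. In flies, several delta and epsilon genes are induced through the transcription factor cnc, which is held back by Keap1 until oxidative or chemical stress.

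RNA was sequenced from whole male flies aged 1 day, pooled by 5, which all carried a white allele (w). Group 1 held 2 libraries of flying w pink1RV controls, a revertant of the pink1 mutation. The other libraries were from w pink1B9 mutants, with 8 from parent pairs that gave no flying offspring (group 2), 10 from offspring unable to fly (group 3) and 10 from their flying siblings (group 4). Replicate numbers only name libraries, and no label says which library of group 4 shares its parents with which of group 3, so the tests treat all libraries as unrelated. Pink1 encodes a mitochondrial kinase, and its loss in flies damages flight muscle. Being whole-fly pools, these libraries cannot tell fewer cells of a type from less RNA per cell.

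Total counts ran from 6434252 to 38330421 per library, with a median of 19636778. Levels are given as CPM, a count scaled to the size of its library after TMM normalization. Pink1 itself stood at 220.6 and 270.5 CPM in the controls and at 42.5 to 100.9 CPM in the 28 mutant libraries. The labels of 6 libraries, 3 each of groups 3 and 4, name human skin as the tissue, although their counts are on fly genes like the rest. Ovary and yolk genes summed to 6693 CPM in group 4 replicate 4, labelled male, and to at most 29.4 CPM in every other library. Calls of members that change without these libraries are named as such. The pathway and tissue lists were not refitted without them.

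The delta genes formed 1 cluster of 20.8 kb on chromosome arm 3R (12364776 to 12385624, BDGP6.54 annotation), with 8 genes on the plus strand and 3 on the minus strand. GstE1 to GstE10 lay within 13.2 kb on arm 2R, where GstE11 to GstE14, GstS1, GstT1 and GstT2 were also placed. The omega genes lay within 6.0 kb on 3L (8518885 to 8524866), where se overlapped GstO2 on the opposite strand. The zeta pair lay within 5.1 kb on 3R (9455517 to 9460652), and GstT3 and GstT4 on the X chromosome. Of the 35 genes, 7 overlapped another annotated gene.

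Some members made up most of the family's transcripts. GstS1, GstD1 and GstE12 together held 60.9% ± 7.67 (SD, n = 2) of the family's CPM in the controls and 66.2% ± 3.83 (n = 8), 64.5% ± 2.84 (n = 10) and 66.6% ± 5.24 (n = 10) in groups 2 to 4. Per kilobase of exon, over all 30 libraries, the highest mean level was that of GstD1 (585.4 CPM per kb), followed by GstS1 (400.7), GstE12 (186.6), GstE9 (116.9) and GstT4 (87.5). The lowest were GstD6 (0.416 CPM per kb), GstD4 (0.756), GstD7 (1.05) and GstD8 (1.264). By this measure, with the exons of all transcripts merged, the highest and the lowest genes of the family lay in the same delta cluster. By CPM alone GstS1 was above GstD1, with means of 911.6 and 493.5 CPM.

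The summed delta genes gave 371.1 and 406.5 CPM in the controls and 496.6 to 882.7 CPM in the mutants, so that no mutant library reached down to the controls. GstD1 made up most of the delta sum. It held a mean of 15.6% of the family's CPM in the controls, where the class held 19.1%. In groups 2 to 4 it held 19.7%, 20.4% and 19.5%, and the class 25.3%, 26.0% and 24.7%. The sums of the zeta pair were also apart, with 11.3 and 14.8 CPM in the controls against 17.2 to 32.4 CPM in the mutants. The other classes overlapped between controls and mutants. Epsilon sums were 553.5 and 620.4 CPM in the controls and had medians of 568.2, 639.3 and 559.7 CPM in groups 2, 3 and 4. The whole family summed to 1804 and 2355 CPM in the controls and to medians of 2478, 2525 and 2580 CPM in groups 2 to 4.

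**Figure D1:**
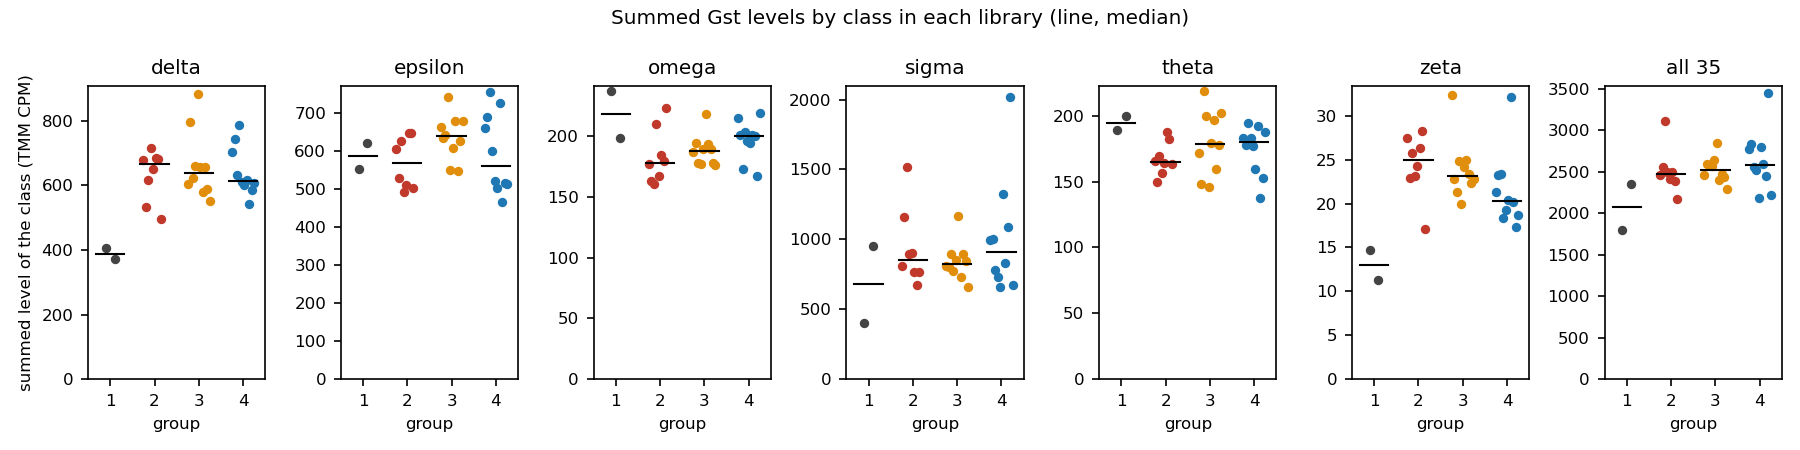
Summed level of each glutathione transferase class, and of all 35 genes, in TMM-scaled CPM (vertical axis) by group (horizontal axis); each point is 1 library and the line is the group median. The delta and zeta sums of all 28 mutant libraries lie above both controls, while the other classes overlap. GstD1 makes up most of the delta sum.

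The first question of the design was how mutants differed from controls. Against group 1, 11 members passed an adjusted p of 0.05 in group 2 (9 higher and 2 lower), where 20.2% of all genes tested did so, 10.7% higher and 9.52% lower. In group 3 there were 13 (11 higher and 2 lower), against 26.5% of all genes, 14.2% higher and 12.3% lower. In group 4 there were 10 (8 higher and 2 lower), against 33.2% of all genes, 17.5% higher and 15.7% lower. The share of members called either way was thus above that of all genes in groups 2 and 3 and below it in group 4. The median log2 fold change of the 35 members was 0.46, 0.35 and 0.57 in groups 2, 3 and 4, beside -0.00032, -0.0096 and 0.076 over all genes tested. These are edgeR quasi-likelihood tests with Benjamini-Hochberg adjustment, and all 3 comparisons rest on the same 2 control libraries.

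Of the members, 7 rose in all 3 comparisons (GstD1, GstD5, GstD9, GstE4, GstE7, GstO1 and GstZ1) and 2 fell in all 3 (GstE2 and GstO3). Of the 13190 genes tested, 1294 were called higher in all 3 and 1079 lower in all 3. A further 5 rose in 1 or 2 comparisons: GstD2 and GstZ2 in groups 2 and 3, GstD10 and GstE9 in group 3, and GstE14 in group 4. The remaining 21 passed in none. The 14 members called in at least 1 comparison stand beside 36% of all genes tested, a similar share. In 6 members (GstD1, GstD2, GstD5, GstD9, GstE4 and GstE7) every mutant library lay above both controls, which held for 7.75% of all genes tested. In 2 (GstE2 and GstO3) every mutant library lay below both, as in 6.93% of all genes. Taken group by group, 11, 11 and 10 members lay wholly above both controls in groups 2, 3 and 4 (11.1%, 19.1% and 16.5% of all genes) and 4, 2 and 2 wholly below (13.3%, 19.1% and 12.7%).

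Many of these calls were lost with 1 or the other control left out. With either control left out, fewer members were called in groups 2, 3 and 4. The share of all genes called in these fits is not given here. The losses were therefore not compared with those of other genes. Of the 16 calls lost without replicate 1, all kept their sign and moved by less than 1 SE on the log2 scale, while the SE itself grew (median 1.39-fold). Of the 24 lost without replicate 2, all kept their sign and 15 moved by less than 1 SE, with the SE growing 1.35-fold. GstD5 was called in every comparison with either control left out. GstO3 kept its calls except in group 3 without group 1 replicate 1 (edgeR adjusted p = 0.0592).

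**Figure D2:**
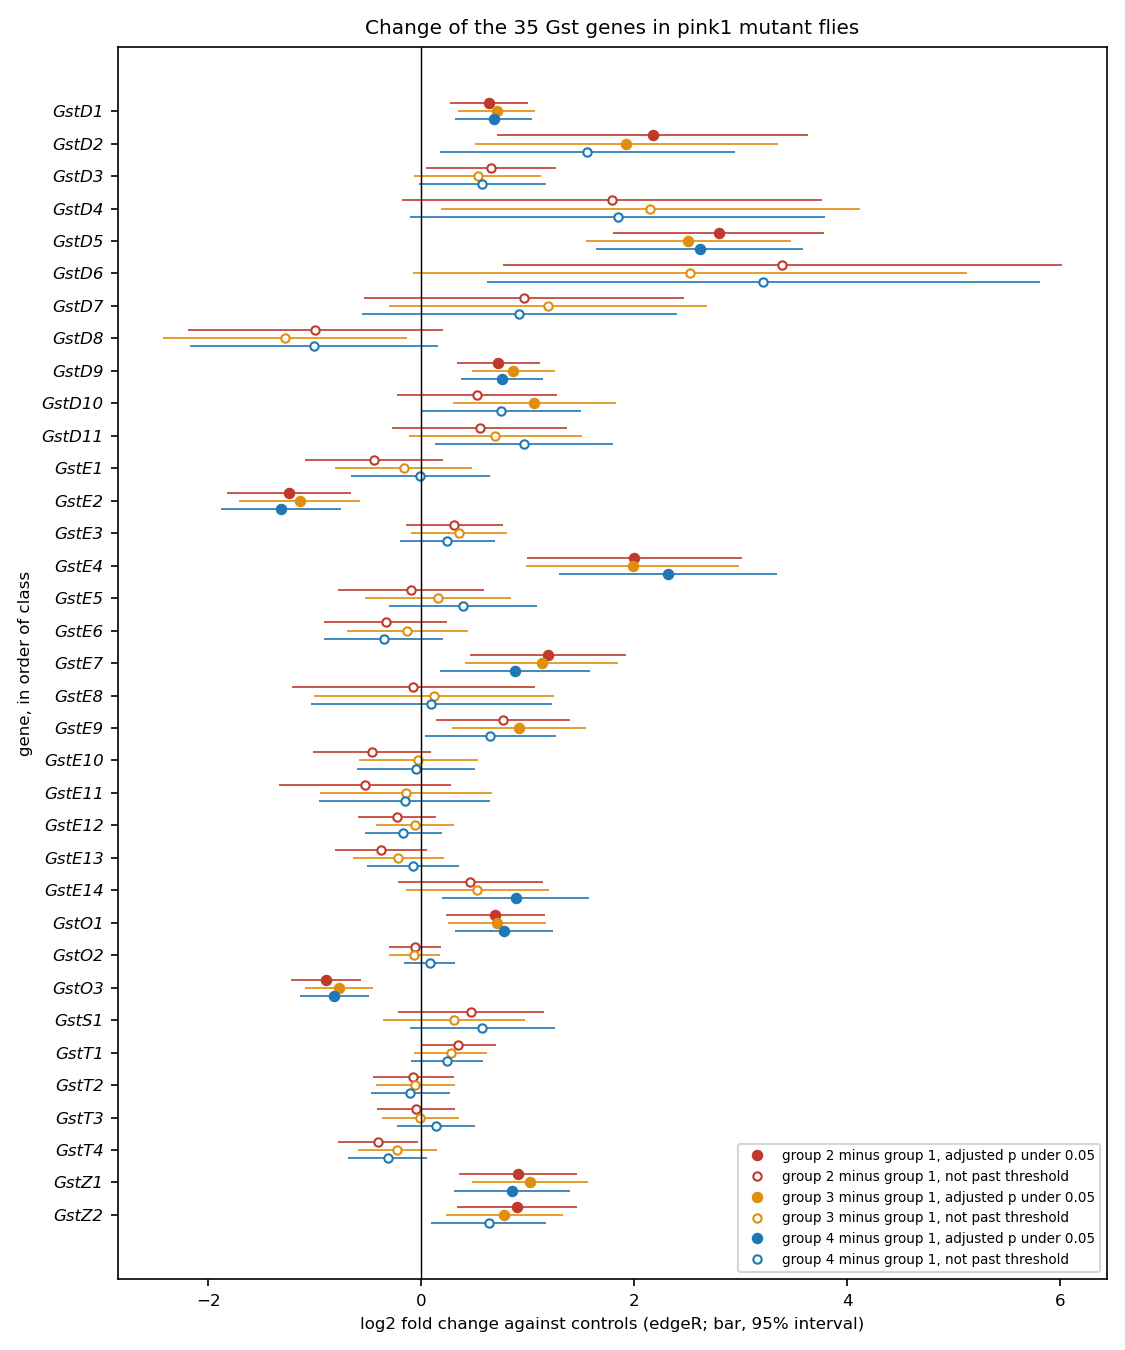
Log2 fold change of each of the 35 genes (rows, by class) in groups 2, 3 and 4 against group 1, with 95% intervals as bars; filled points passed an adjusted p of 0.05. Among the delta genes 10 of 11 point to the right in each comparison, and GstE2 and GstO3 are the filled points on the left; the GstD6 values rest on a control without a count.

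In the delta class, 10 of 11 members had a positive log2 fold change in each comparison, and 4, 5 and 3 of them passed the test in groups 2, 3 and 4. Over all genes tested, 50%, 49.4% and 54.5% had a positive value. The delta calls, all higher, made up 36.4%, 45.5% and 27.3% of the class, beside 10.7%, 14.2% and 17.5% of all genes called higher and 20.2%, 26.5% and 33.2% called either way. GstD5 showed the largest fold among the members called. It stood at 3.196 and 2.461 CPM in the controls. Levels ran from 7.43 to 33.2 CPM in group 2 (median 18.3), from 8.78 to 26.2 CPM in group 3 (median 14.6) and from 9.99 to 26.8 CPM in group 4 (median 16.4). All mutant libraries were thus more than 2-fold above the higher control. The log2 fold changes were 2.79 (SE 0.48, edgeR adjusted p = 0.000216), 2.51 (SE 0.47, p = 0.000428) and 2.61 (SE 0.47, p = 0.000221), or 6.94-, 5.68- and 6.12-fold. With 1 control left out, the adjusted p lay between 0.00588 and 0.0322.

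GstD1, the most abundant delta enzyme and a common reporter of oxidative stress in flies, changed less but from a far higher base. The controls gave 335.9 and 296.9 CPM. The medians were 508.9, 498.1 and 475.3 CPM in groups 2, 3 and 4, with ranges of 378.9 to 552.8, 436.9 to 743.5 and 417.6 to 685.9 CPM. No mutant library overlapped the controls. The rise was 1.55-, 1.63- and 1.60-fold, with log2 fold changes of 0.63 (SE 0.18, edgeR adjusted p = 0.0131), 0.71 (SE 0.18, p = 0.00481) and 0.68 (SE 0.18, p = 0.00496). Without group 1 replicate 1 the adjusted p was 0.0507, 0.0291 and 0.0266, and without group 1 replicate 2 it was 0.208, 0.126 and 0.124, although the log2 fold changes stayed between 0.54 and 0.82.

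GstD9, next to GstD10 at the edge of the cluster, rose by a like amount. Its controls stood at 36.3 and 41.3 CPM. Group 2 had a lowest, median and highest level of 51.7, 64.6 and 75.0 CPM, group 3 of 55.9, 67.0 and 103.6 CPM and group 4 of 47.2, 64.0 and 88.7 CPM, again without overlap. The folds were 1.65, 1.82 and 1.69, on the log2 scale 0.72 (SE 0.19, edgeR adjusted p = 0.00871), 0.86 (SE 0.19, p = 0.00185) and 0.76 (SE 0.19, p = 0.00374). With either control left out the call in group 3 was kept (adjusted p = 0.0487 and 0.0237), that in group 2 was lost (0.109 and 0.058), and that in group 4 was lost without group 1 replicate 1 (0.0652) and kept without replicate 2 (0.0359).

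GstD2 was the most uneven of the members called. It gave 4.85 and 2.82 CPM in the controls. Group 2 ran from 5.79 to 45.8 CPM with a median of 14.6, group 3 from 6.42 to 48.7 CPM (median 10.5) and group 4 from 5.36 to 19.2 CPM (median 11.4). All mutants lay above both controls, but 1 library each of groups 2 and 3 stood far above the rest of its group. The log2 fold changes were 2.17 (SE 0.71, edgeR adjusted p = 0.0317), 1.93 (SE 0.70, p = 0.0402) and 1.56 (SE 0.68, p = 0.0756), so that the values in groups 2 and 3 passed. Both calls were lost with either control left out, with adjusted p between 0.0997 and 0.323, and with only the 2 groups compared in the model. The call in group 3 was also lost with limma-voom. In group 4, where it did not pass, DESeq2 and the model of the 2 groups called it.

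GstD10 passed the test in group 3 alone. It stood at 4.49 and 4.74 CPM in the controls. Group 2 ran from 4.26 to 9.31 CPM (median 6.52), group 3 from 6.36 to 14.2 CPM (median 9.21) and group 4 from 2.48 to 14.1 CPM (median 6.98). Group 3 did not overlap the controls, whereas groups 2 and 4 did. The log2 fold change was 1.06 in group 3 (SE 0.38, edgeR adjusted p = 0.0367), 0.52 in group 2 (p = 0.32) and 0.75 in group 4 (p = 0.115). The call was lost without group 1 replicate 1 (adjusted p = 0.174) and without replicate 2 (0.212). Without group 4 replicate 4, the library with ovary transcripts and the lowest GstD10 level, the gene also passed in group 4.

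The 6 other delta genes did not pass in any comparison. GstD3 stood at 14.4 and 17.5 CPM in the controls and at 11.8 to 41.2 CPM in the mutants, with 26 of 28 above both controls. GstD11 had 22 of 28 mutant libraries above both controls. GstD8 was the exception to the direction of the class, at 2.66 and 1.41 CPM in the controls and 0.0789 to 2.51 CPM in the mutants, of which 23 lay below both controls. By the other tools, DESeq2 called GstD6 in groups 2 and 4 and GstD11 in group 4, and limma-voom called GstD8 in groups 3 and 4. GstD4, GstD6 and GstD7 stayed under 2 CPM in every library. GstD6 had 0 and 2 counts in the controls and at most 42 in a mutant library, and its adjusted p was 0.0594, 0.137 and 0.0511.

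**Figure D3:**
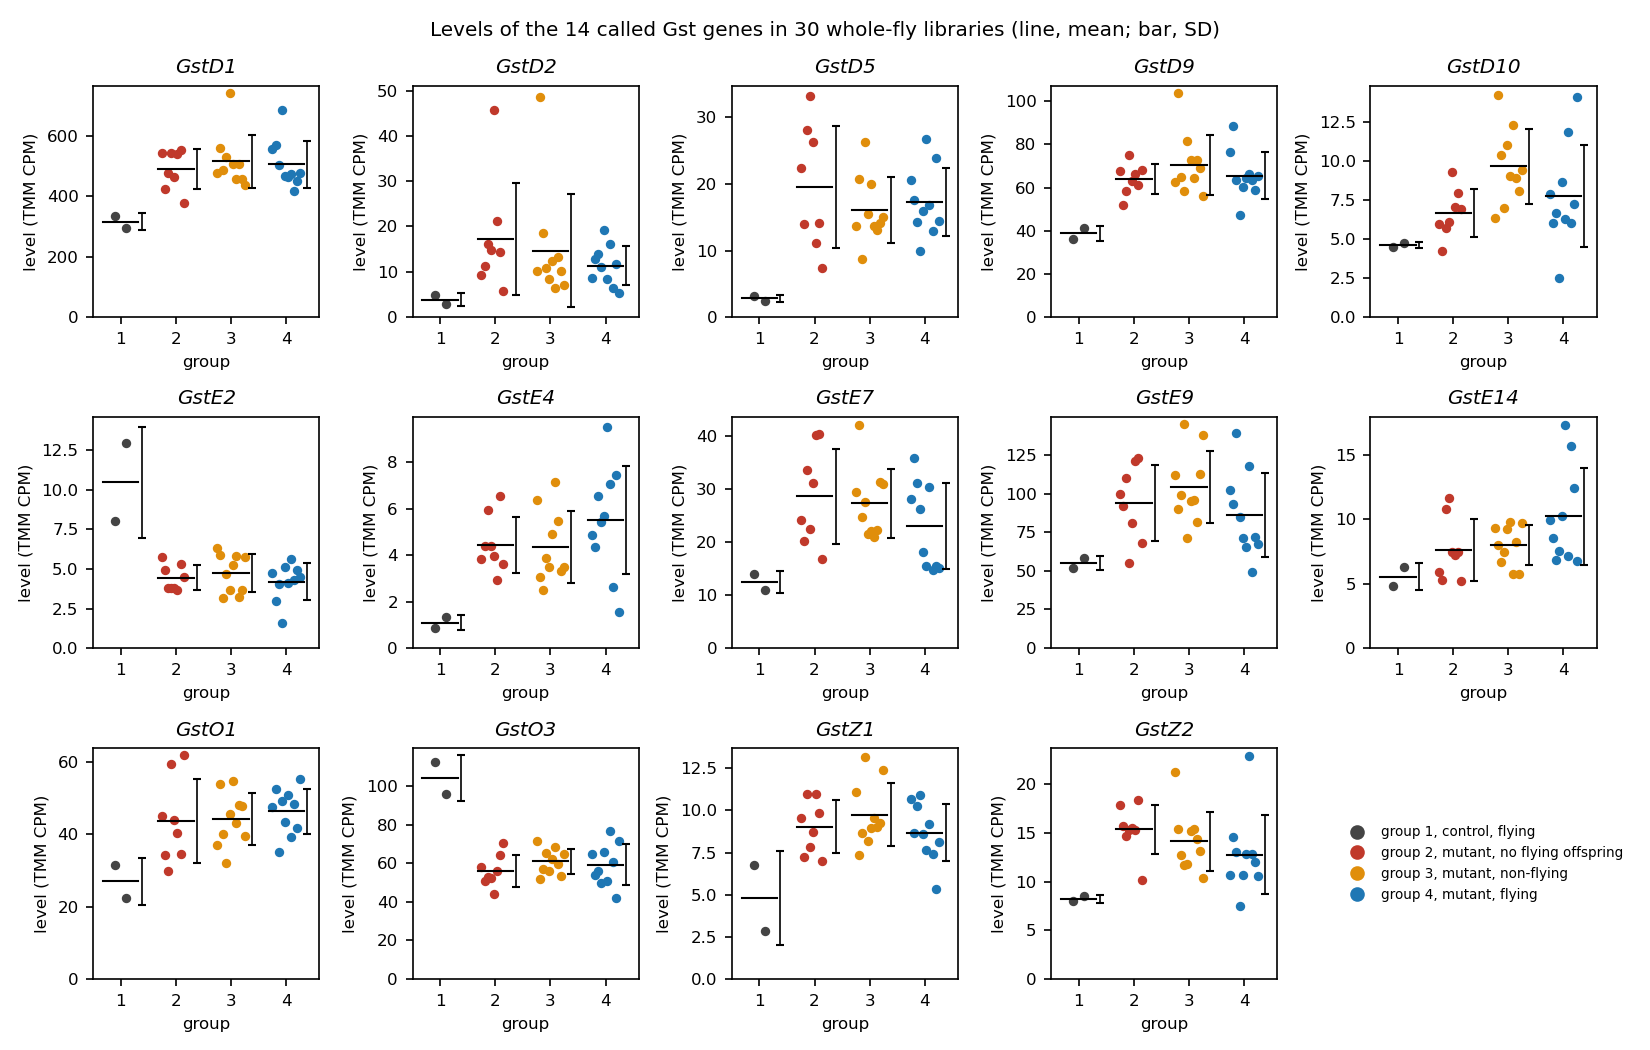
Levels of the 14 genes that passed the test in at least 1 comparison with the controls, in TMM-scaled CPM, in each of the 30 libraries by group; lines are group means and bars the SD. For GstD1, GstD2, GstD5, GstD9, GstE4 and GstE7 every mutant library lies above both controls, and for GstE2 and GstO3 every one lies below.

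The epsilon class moved in both directions. Of its 14 genes, 5, 7 and 7 had a positive log2 fold change in groups 2, 3 and 4. That is 35.7%, 50% and 50%, beside 50%, 49.4% and 54.5% of all genes tested. By the test 2, 3 and 3 rose, and 1 fell in each comparison. These calls were 21.4%, 28.6% and 28.6% of the class, near the 20.2%, 26.5% and 33.2% of all genes called either way. GstE4 gave 0.862 and 1.34 CPM in the controls. Levels ran from 2.95 to 6.56 CPM in group 2 (median 4.17), from 2.50 to 7.17 CPM in group 3 (median 3.68) and from 1.57 to 9.51 CPM in group 4 (median 5.54). No mutant library overlapped the controls, although the lowest of group 4 came close. The folds were 4.00, 3.96 and 4.97, on the log2 scale 2.00 (SE 0.50, edgeR adjusted p = 0.00531), 1.99 (SE 0.49, p = 0.00449) and 2.31 (SE 0.50, p = 0.00116). The call in group 4 was kept with either control left out (0.038 and 0.0219), that in group 2 with neither (0.0926 and 0.0522), and that in group 3 only without group 1 replicate 2 (0.0811 and 0.0492).

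GstE7 stood at 13.97 and 11.04 CPM in the controls. The medians were 27.6, 26.2 and 22.1 CPM in groups 2, 3 and 4, with ranges of 16.9 to 40.5, 21.0 to 42.1 and 14.8 to 35.9 CPM. The mutants lay above both controls, with group 4 reaching closest to them. The log2 fold change was 1.19 (SE 0.36, edgeR adjusted p = 0.0193), 1.13 (SE 0.35, p = 0.0196) and 0.88 (SE 0.35, p = 0.049). All 3 calls were lost with either control left out (adjusted p from 0.0748 to 0.353). The call in group 4 was also lost without group 4 replicate 4, with limma-voom, without the filter on low counts, and in the model of the 2 groups alone.

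GstE2 fell, next to GstE1 in the same cluster and against the direction of GstE4 and GstE7. Its controls gave 8.01 and 13.0 CPM. Group 2 ran from 3.69 to 5.76 CPM (median 4.16), group 3 from 3.17 to 6.31 CPM (median 4.94) and group 4 from 1.58 to 5.63 CPM (median 4.39). Every mutant library lay below both controls, whose own difference was wider than the range of any mutant group. The log2 fold changes were -1.24 (SE 0.29, edgeR adjusted p = 0.00299), -1.14 (SE 0.28, p = 0.00397) and -1.32 (SE 0.27, p = 0.000846), or 2.36-, 2.21- and 2.49-fold lower. Without group 1 replicate 2, the higher control, the adjusted p was 0.21, 0.232 and 0.109, and without replicate 1 it was 0.00777, 0.0103 and 0.00317.

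GstE9, the epsilon gene with the second highest level, rose in group 3 only. It gave 51.8 and 58.1 CPM in the controls. The libraries of group 2 ran from 55.4 to 122.9 CPM (median 96.0), those of group 3 from 71.6 to 144.9 CPM (median 97.4) and those of group 4 from 49.1 to 139.3 CPM (median 78.3). Over the mutants, 26 of 28 libraries lay above both controls. The log2 fold change was 0.92 in group 3 (SE 0.31, edgeR adjusted p = 0.0281), 0.77 in group 2 (p = 0.0744) and 0.65 in group 4 (p = 0.0957), and the call in group 3 was lost with either control left out (adjusted p = 0.165 and 0.181). DESeq2 also called it in group 2, and edgeR called it in group 4 without the 6 libraries labelled human skin.

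GstE14, known as noppera-bo, acts in the larval prothoracic gland in the handling of sterols for ecdysteroid synthesis. It stood at 4.81 and 6.30 CPM in the controls. In group 2 it ran from 5.20 to 11.7 CPM (median 7.36), in group 3 from 5.77 to 9.79 CPM (median 8.14) and in group 4 from 6.80 to 17.3 CPM (median 9.24). Only group 4 lay wholly above the controls. Its log2 fold change was 0.89 there (SE 0.34, edgeR adjusted p = 0.0427), against 0.46 (p = 0.338) and 0.53 (p = 0.235) in groups 2 and 3, and between groups 4 and 3 themselves it did not pass. The call was lost with either control left out (adjusted p = 0.255 and 0.15), without the libraries labelled human skin, and in the model of the 2 groups alone.

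GstE12, the epsilon gene with the highest level, did not pass in any comparison. It gave 262.0 and 311.1 CPM in the controls and medians of 246.7, 271.6 and 244.9 CPM in groups 2 to 4, with a range of 189.0 to 352.5 CPM over the mutants. Its log2 fold changes were -0.23 (95% interval -0.60 to 0.14), -0.06 (-0.43 to 0.30) and -0.17 (-0.53 to 0.19). GstE1, which acts on the lipid peroxidation product 4-hydroxynonenal, stood at 52.6 and 56.3 CPM in the controls and at 33.3 to 99.6 CPM in the mutants, 22 of which lay below both controls. GstE3, GstE5, GstE6, GstE8, GstE10, GstE11 and GstE13 also passed in none, with mutant medians from 4.63 CPM (GstE5) to 53.2 CPM (GstE3).

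The 3 omega genes, which in other animals act as thiol transferases and reduce dehydroascorbate, went 3 ways. GstO3 fell. It gave 112.6 and 96.0 CPM in the controls. Group 2 ran from 44.0 to 70.7 CPM (median 54.5), group 3 from 52.0 to 71.3 CPM (median 61.1) and group 4 from 41.9 to 76.7 CPM (median 58.3). All mutants lay below both controls, by log2 fold changes of -0.89 (SE 0.16, edgeR adjusted p = 0.000322), -0.77 (SE 0.16, p = 0.000947) and -0.82 (SE 0.16, p = 0.000416), or 1.86-, 1.71- and 1.76-fold. Of these calls, the one in group 3 was lost without group 1 replicate 1 (adjusted p = 0.0592).

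GstO1 rose. It stood at 31.6 and 22.4 CPM in the controls. Levels ran from 29.97 to 61.8 CPM in group 2 (median 42.2), from 31.96 to 54.6 CPM in group 3 (median 44.3) and from 35.2 to 55.3 CPM in group 4 (median 48.0). Of the 28 mutant libraries, 27 lay above both controls. On the log2 scale the rise was 0.69 (SE 0.23, edgeR adjusted p = 0.0316), 0.71 (SE 0.22, p = 0.0216) and 0.78 (SE 0.23, p = 0.0106). All 3 calls were lost without group 1 replicate 2, the lower control (adjusted p = 0.398, 0.327 and 0.239), those in groups 2 and 3 also without the libraries labelled human skin, and that in group 2 in the model of the 2 groups alone.

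GstO2, the omega gene with the highest CPM, gave 93.2 and 79.8 CPM in the controls and medians of 79.6, 81.1 and 91.6 CPM in groups 2 to 4. Its log2 fold changes against the controls were -0.06, -0.06 and 0.08, with 95% intervals between -0.30 and 0.32, the narrowest of any member. The opposite moves of GstO1 and GstO3 left the summed omega level of the mutants at 160.9 to 222.8 CPM, against 237.4 and 198.2 CPM in the controls.

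The zeta genes encode maleylacetoacetate isomerases of tyrosine breakdown. GstZ1 gave 6.79 and 2.82 CPM in the controls, a spread larger than that of most members. The medians were 9.14, 9.14 and 8.63 CPM in groups 2, 3 and 4, with ranges of 7.01 to 10.99, 7.36 to 13.2 and 5.36 to 10.9 CPM. Of the mutant libraries, 27 of 28 lay above both controls. The log2 fold changes were 0.91 (SE 0.27, edgeR adjusted p = 0.0184), 1.02 (SE 0.27, p = 0.007) and 0.85 (SE 0.27, p = 0.0158). They fell to 0.41, 0.52 and 0.34 without group 1 replicate 2 (adjusted p = 0.509, 0.335 and 0.51) and were 1.69, 1.81 and 1.64 without replicate 1. In the model of the 2 groups alone the calls in groups 2 and 4 were lost.

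GstZ2 had controls that were close together, at 7.97 and 8.51 CPM. Group 2 ran from 10.2 to 18.4 CPM (median 15.4), group 3 from 10.4 to 21.3 CPM (median 13.8) and group 4 from 7.51 to 23.0 CPM (median 12.4). Groups 2 and 3 lay wholly above the controls, and group 4 did so in all but 1 library. On the log2 scale the rise was 0.90 (SE 0.27, edgeR adjusted p = 0.0213), 0.78 (SE 0.27, p = 0.0325) and 0.63 (SE 0.27, p = 0.0654). Both calls were lost with either control left out (adjusted p from 0.137 to 0.2), whereas the value in group 4 passed without group 4 replicate 4, its lowest library, and with DESeq2.

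Of the 4 theta genes, 0 passed in any comparison by edgeR, DESeq2 or limma-voom, and 1 (GstT4 in group 2) had an unadjusted edgeR p under 0.05. GstT4, with the highest level of the class, gave 120.7 and 139.6 CPM in the controls and medians of 98.7, 111.3 and 107.1 CPM in groups 2 to 4. In group 2 all 8 libraries lay below both controls, with a log2 fold change of -0.41 (SE 0.18, edgeR adjusted p = 0.109). GstT1 stood at 26.6 and 23.1 CPM in the controls, and 24 of 28 mutant libraries lay above both. GstT2 ranged from 10.6 to 23.2 CPM and GstT3 from 18.8 to 37.4 CPM over the mutants, around controls of 15.8 and 15.1 CPM and of 25.7 and 21.8 CPM.

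GstS1, the sigma enzyme, is abundant in flight muscle, and raising it in flies that lack parkin, which acts downstream of Pink1, lessened the loss of dopaminergic neurons. It had the highest CPM of the family, and its 2 controls were far apart, at 403.4 and 954.1 CPM. Levels ran from 671.3 to 1517 CPM in group 2 (median 852.6), from 655.3 to 1165 CPM in group 3 (median 825.2) and from 656.6 to 2016 CPM in group 4 (median 912.6). Every mutant library lay above the lower control and 8 of 28 lay above the higher. The log2 fold changes were 0.46 (95% interval -0.22 to 1.15, edgeR adjusted p = 0.337), 0.31 (-0.36 to 0.98, p = 0.501) and 0.57 (-0.11 to 1.25, p = 0.186). Without group 1 replicate 1 they were -0.01, -0.16 and 0.10, and without replicate 2 they were 1.21, 1.05 and 1.31, none past the threshold.

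The same libraries stood apart in flight muscle transcripts. The 8 flight muscle genes listed (Act88F, fln, TpnC4, up, Mhc, Mf, Strn-Mlck and sls) summed to 6516 CPM in group 1 replicate 1 and 23610 CPM in replicate 2. Act88F, the actin of the indirect flight muscles, was at 66.8 CPM in the first control and 2930 CPM in the second, and fln, the flight muscle protein flightin, at 14.3 and 805 CPM. Over the mutants Act88F ran from 155 to 4530 CPM and fln from 55.1 to 1260 CPM, so that the first control was lower in both than every mutant. None of the 8 genes was at 0 throughout a group, and 0 passed the test in any comparison with the controls by edgeR, DESeq2 or limma-voom. At an unadjusted edgeR p under 0.05 there were 1, 1 and 0. The direction of the list depended on the control. Its median log2 fold change was -0.38, -0.49 and -0.27 in groups 2, 3 and 4. Without group 1 replicate 1 it was -1.15, -1.28 and -1.09, and without replicate 2 it was 1.01, 0.82 and 0.92.

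Among the 28 mutant libraries, with group means removed, log2 GstS1 followed the log2 sum of the flight muscle genes with Pearson's r = 0.75 (permutation p = 2e-05, adjusted 0.00024) and Spearman's rho = 0.62 (p = 0.00053, adjusted 0.00372). Leaving out the 2 libraries farthest from the median of the muscle sum gave r = 0.55. Within groups 2, 3 and 4, r was 0.74, 0.39 and 0.87, and it was 0.63 in the 22 mutant libraries labelled whole body and 0.96 in the 6 labelled human skin. The 2 highest GstS1 libraries, group 4 replicate 9 and group 2 replicate 3, had the 2 highest muscle sums of the mutants, 22810 and 22170 CPM. This relation was chosen after the levels had been seen, as 1 of 12 computed between the 3 highest members and 4 tissue lists.

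**Figure D4:**
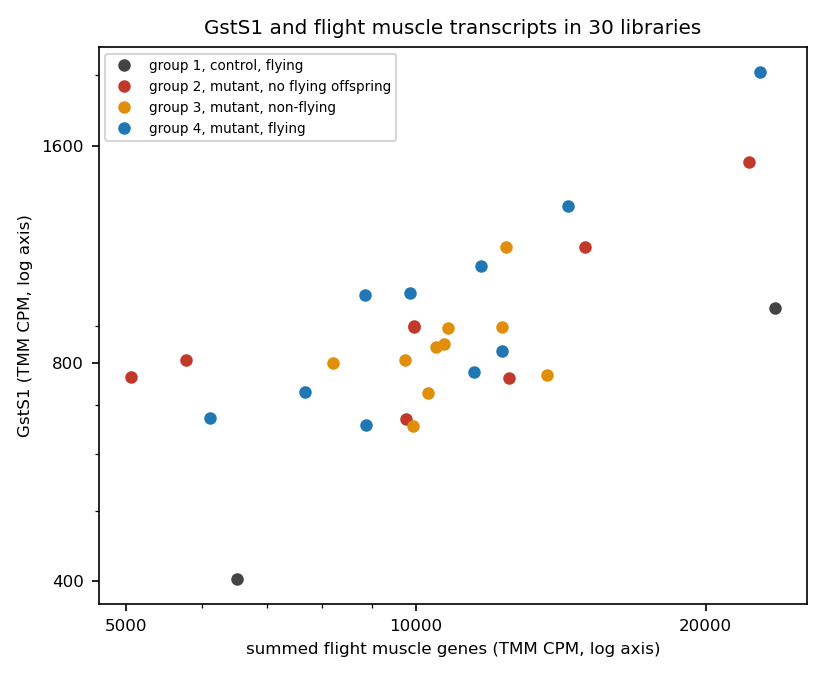
GstS1 level against the summed level of 8 flight muscle genes, both in TMM-scaled CPM on log axes, with 1 point per library coloured by group. The 2 controls lie near opposite ends of the horizontal axis (6516 and 23610 CPM), and the mutant libraries with the highest muscle sums have the highest GstS1 levels.

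Of the other 11 relations, GstE12 followed the summed midgut digestive enzymes (r = 0.65, permutation p = 0.00026, adjusted 0.00156, rho = 0.62, p = 0.00062, adjusted 0.00372, and r = 0.59 without the 2 farthest libraries). Within groups 2, 3 and 4, r was 0.09, 0.73 and 0.90, and it was 0.64 and 0.69 in the libraries labelled whole body and human skin. GstD1 followed the fat body list by rank only (rho = 0.50, permutation p = 0.00671, adjusted 0.0268, with r = 0.42, p = 0.026, adjusted 0.104). For GstD1 and flight muscle r was -0.12, and for GstS1 and midgut 0.04.

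The second question was whether flying and non-flying mutants differed. No member passed an adjusted p of 0.05 between groups 4 and 3, 4 and 2, or 3 and 2 by edgeR, DESeq2 or limma-voom, and in these 3 comparisons edgeR called 0% of all genes. At an unadjusted p under 0.05, 1 member (GstO2) stood out between groups 4 and 3, where 8% of all genes did. Between groups 4 and 2 there were 5 (GstE1, GstE5, GstE10, GstE13 and GstE14), against 12.1% of all genes, and between groups 3 and 2 there were 2 (GstD10 and GstE10), against 1.84%. With groups 2 and 3 pooled as non-flying mutants, no member was called and 2 had an unadjusted p under 0.05 (GstE14 and GstO2). Over all genes, 0.326% were called and 13.6% had such a p. The 43 genes called included 12 of the ovary and yolk list, whose sum was high in group 4 replicate 4 alone.

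Between groups 4 and 3, the closest comparison of the design, GstO2 ranged from 81.3 to 104.6 CPM in flying and from 71.8 to 101.2 CPM in non-flying mutants, a log2 fold change of 0.14 (SE 0.07, edgeR p = 0.0415, adjusted p = 0.616). The 95% interval of the log2 fold change lay within 1 in either direction for 30 of the 35 members and within 0.5 for 17. The 5 with wider intervals were GstD2, GstD4, GstD6, GstD7 and GstD8, all of them low or uneven. Among the 9 members that rose or fell in all comparisons with controls, the interval lay within 0.5 for GstD1 (-0.22 to 0.17), GstO3 (-0.24 to 0.15), GstD9, GstO1 and GstZ1. It reached past 0.5 for GstE4 (-0.16 to 0.82), GstE7 (-0.63 to 0.13), GstD5 (-0.35 to 0.56) and GstE2 (-0.54 to 0.19). For GstS1 the interval was -0.11 to 0.64, around a log2 fold change of 0.26.

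**Figure D5:**
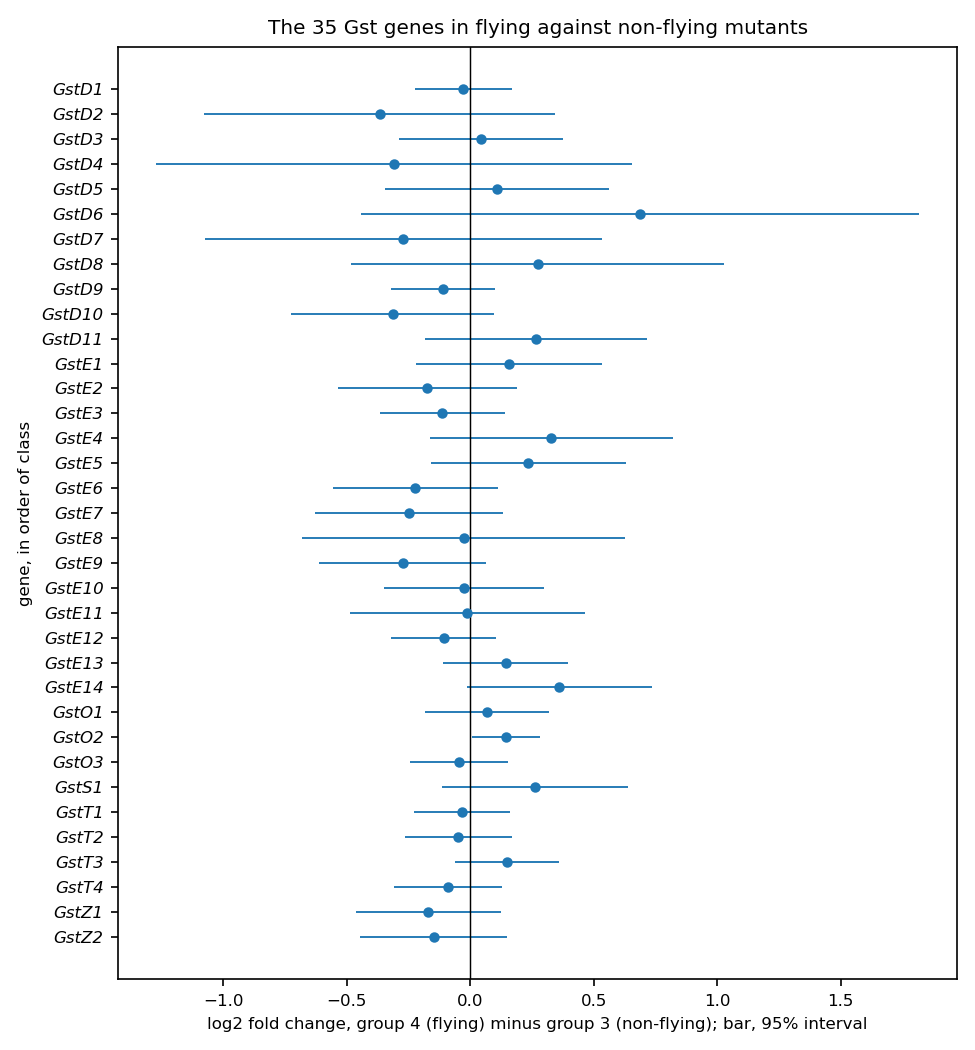
Log2 fold change of each of the 35 genes (rows, by class) in flying (group 4) against non-flying (group 3) mutants, with 95% intervals as bars. The values run from -0.37 to 0.69, and none passed an adjusted p of 0.05.

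The F-test over both contrasts of the study (Flying sets the mean of groups 1 and 4 against the pooled groups 2 and 3, and MutatedFlying sets group 4 against them) has no direction. It called 12 members, against 27% of all genes. These were the 14 members called against the controls except GstD10 and GstE9. Fewer members were called with either control left out, where the share of all genes called is not given here.

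Neighbouring genes of the delta and epsilon clusters were compared over the 28 mutant libraries, with group means removed, in the 14 adjacent pairs whose genes both averaged at least 1 CPM. GstE6 and GstE7 varied together (r = 0.73, permutation p = 3e-05, adjusted 0.00042, rho = 0.76, p = 3e-05, adjusted 0.00042), as did GstE7 and GstE8 (r = 0.67, p = 0.00015, adjusted 7e-04, rho = 0.67, p = 0.00016, adjusted 0.00112). GstD2 and GstD3 did so too (r = 0.68, permutation p = 0.00011, adjusted 7e-04, rho = 0.62, p = 0.00059, adjusted 0.00206). Leaving out the 2 farthest libraries gave r = 0.76, 0.59 and 0.47 for these pairs, and the 22 libraries labelled whole body gave 0.71, 0.63 and 0.71.

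GstD8 and GstD11 varied in opposite directions (r = -0.65, permutation p = 2e-04, adjusted 7e-04, rho = -0.64, p = 0.00033, adjusted 0.00154). The r was -0.52 without the 2 farthest libraries and -0.59 in those labelled whole body. GstD8 was near the limit of 1 CPM, at a mean of 1.02 CPM, with median counts of 16.5, 17.5 and 15.5 in groups 2, 3 and 4. The correlations of neighbours used log2 of CPM plus 1. GstD10 and GstD9 had r = 0.47 (permutation p = 0.0142, adjusted 0.0398) with rho = 0.34 (p = 0.0783, adjusted 0.15), and r = 0.36 without 2 libraries. GstE8 and GstE9 passed by rank only (rho = 0.51, permutation p = 0.00674, adjusted 0.0189, with r = 0.43, p = 0.0215, adjusted 0.0503), with r = 0.56 without the 2 farthest libraries. The 6 pairs from GstE10 and GstE1 to GstE5 and GstE6, in the same cluster as GstE7, had r between -0.11 and 0.13. Near-identical stretches of neighbouring paralogs can also share reads, and the part of this in these correlations was not tested. The permutations treat the 28 libraries as independent, although those of groups 3 and 4 include siblings.

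In 2 other detoxification families more genes fell than rose with both controls in the fit. Of 86 cytochrome P450 genes tested, 8, 8 and 8 rose and 15, 14 and 23 fell in groups 2, 3 and 4, which is 26.7%, 25.6% and 36% of them beside 20.2%, 26.5% and 33.2% of all genes, with median log2 fold changes of -0.27, -0.29 and -0.37. Cyp4aa1 and Cyp4g15 fell in each comparison (in group 4 by log2 fold changes of -2.60 and -1.84, edgeR adjusted p = 7.99e-08 and 2.3e-06), and Cyp309a2 and Cyp309a1 rose (1.38 and 4.32, p = 1.09e-05 and 6.57e-05). The balance of the family was gone without group 1 replicate 2, with 6, 6 and 6 P450 genes higher and 5, 4 and 6 lower, and Cyp4g15 was no longer called (-0.71 in group 4, p = 0.0917), while the other 3 were.

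Of 31 UDP-glycosyltransferases, which attach sugars to the same kinds of substrate, 3, 3 and 3 rose and 8, 12 and 14 fell. That is 35.5%, 48.4% and 54.8% called, beside 20.2%, 26.5% and 33.2% of all genes. The median log2 fold changes were -0.51, -0.63 and -0.86. The genes with the smallest p in group 4 were Ugt303B3, Ugt317A1, Ugt303B1 and Ugt35A1, which all fell (-4.11, -1.55, -3.37 and -2.03). These counts were 2, 2 and 2 higher and 3, 3 and 7 lower without group 1 replicate 2.

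Among 5 drug exporters, Mdr50 and Mdr65 fell in each comparison, and Mdr49 and Mrp4 did not pass. The calls were 40% of the list each time, beside 20.2%, 26.5% and 33.2% of all genes in groups 2, 3 and 4. Mdr50 stood at 8.94 and 65.0 CPM in the controls and reached 23.0 CPM in a library of group 2, above the lower control. Its log2 fold change in group 4 was -4.01 (SE 0.82), and -1.96 without group 1 replicate 2, the higher control (adjusted p = 0.273). Mdr65 was at -1.15 (SE 0.27) and -0.75 (p = 0.219), and without that control 0 exporters were called in any comparison.

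Of the 8 genes for glutathione synthesis and turnover, 2, 2 and 3 were called, or 25%, 25% and 37.5%, near the shares of all genes. CG4829 fell in all 3 (-0.92, -1.02 and -1.04). Gclm, the modifier subunit of the enzyme that starts glutathione synthesis, rose in groups 3 and 4 (log2 fold change 0.33 and 0.40, edgeR adjusted p = 0.0436 and 0.014). Gclc, its catalytic subunit, fell in group 4 (-0.75, p = 0.0196), and Ggt-1, a gamma-glutamyl transferase, in group 2 (-0.89, p = 0.0404). None of the 8 was called without group 1 replicate 2, and without replicate 1 there were 1, 1 and 2.

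Among 8 other glutathione enzymes, 1, 1 and 2 rose and 1, 0 and 0 fell, again no larger a share than that of all genes in groups 3 and 4. PHGPx, a glutathione peroxidase that reduces lipid peroxides, rose in all 3 comparisons (log2 fold change 1.22, 1.23 and 0.81, edgeR adjusted p = 0.00968, 0.00739 and 0.0455). The omega gene se, which makes a precursor of the red eye pigments, rose in group 4 (1.42, p = 0.0209), with 1.201 (p = 0.0643) and 1.02 (p = 0.0894) in groups 2 and 3. The glutaredoxin gene Grx1 fell in group 2 (-0.38, p = 0.0454), and Grx1t did not pass. With either control left out PHGPx and se were not called, at log2 fold changes of 0.75 to 1.64.

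All 7 regulators had negative log2 fold changes in each comparison, and 2, 1 and 2 fell. These calls were 28.6%, 14.3% and 28.6% of the list, beside 20.2%, 26.5% and 33.2% of all genes called either way. Keap1 fell in all 3 (-0.38, -0.39 and -0.46, edgeR adjusted p = 0.0436, 0.0314 and 0.0101). The gene ss, the fly homologue of the aryl hydrocarbon receptor, fell in group 2 (-0.68, p = 0.042), and foxo, a transcription factor of insulin and stress signalling, in group 4 (-0.56, p = 0.0448). The cnc gene did not pass (-0.23, -0.27 and -0.33, p = 0.356, 0.221 and 0.128). None of these was called without group 1 replicate 2, and without replicate 1 Keap1 and foxo were called in group 4 alone.

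Markers of several tissues also differed between the mutants and the controls. Over all genes tested, 10.7%, 14.2% and 17.5% were called higher in groups 2, 3 and 4, and 9.52%, 12.3% and 15.7% lower. Of 35 midgut digestive enzymes tested, 20, 16 and 19 fell by edgeR in groups 2, 3 and 4, with sums of 7394 and 24460 CPM in the controls and 1307 to 7156 CPM in the mutants. Photoreceptor genes fell (11, 12 and 13 of 13), with sums of 15740 and 7147 CPM against 1874 to 6938 CPM, as did 3 of 4 haemocyte genes in each comparison, with sums of 73.1 and 319.5 CPM against 41.5 to 98.6 CPM. Testis genes rose (1, 8 and 10 of 10), with sums of 4142 and 3654 CPM against 3422 to 9559 CPM. Among 7 fat body and larval storage genes the median log2 fold change was 5.31, 5.51 and 5.15, but 1 gene passed in each comparison. This was Lsp2, a larval storage protein, at 5.65 and 5.78 CPM in the controls and 20.04 to 1034 CPM in the mutants. The summed list, at 706.2 and 2195 CPM in the controls and 873.8 to 4014 CPM in the mutants, overlapped. Of 4 Malpighian tubule genes, Uro (urate oxidase) rose in each comparison, by log2 fold changes of 2.12, 2.17 and 2.24, and Lkr fell by 1.08, 1.06 and 1.28. Of 11 accessory gland genes 4, 2 and 2 fell (36.4%, 18.2% and 18.2%), Acp36DE and Acp32CD in each comparison.

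These counts too depended on the controls. The midgut genes called lower without group 1 replicate 2 were 7, 6 and 8 and the haemocyte genes 0, 0 and 0, and without replicate 1 the photoreceptor genes were 3, 1 and 6 and the testis genes 0, 0 and 1. Lsp2 and Lkr were not called with either control left out, Uro not without replicate 2, and no accessory gland gene without replicate 1. No listed midgut, photoreceptor, haemocyte or testis gene was at 0 throughout a group. The part of these tissues in the changes of the glutathione transferases was not tested.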

How the data were processed

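Libraries were made from total RNA of whole flies with a stranded kit. The authors' values are estimated counts per gene, deposited as whole numbers. The paper describes pseudoalignment with kallisto and, for its limma tests, conversion of the abundances by tximport to counts scaled by length, and the processing notes name kallisto 0.45.0 and a human build, although the rows are fly genes. Whether the deposited whole numbers are these length-scaled counts could not be settled from the sources used here.

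Tests were run in edgeR 4.0.16 (R 4.3.3, filterByExpr, TMM, robust quasi-likelihood F-test over all 30 libraries, Benjamini-Hochberg adjustment over 13190 genes, threshold 0.05). Intervals are 95%. DESeq2 1.42.0, limma 3.58.1 (voom), 2 other scalings, 2 other filters, the model of 2 groups and left-out libraries were alternatives. Leaving out a control for the pathway and tissue lists was added after seeing the data. Correlations had 100000 permutations. The test was checked on simulated data. The depth was 6434252 to 38330421 counts per library, and no 2 libraries were identical. Groups 3 and 4 hold siblings whose libraries the labels do not match up, so p-values measure the spread between pools and ignore shared parents.

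Members called against the controls, the highest of each class and the 3 with the smallest p between groups 4 and 3 were described in full. From each pathway list the 4 genes with the smallest p in group 4 were named, and from tissue lists at most 4. Members and lists were chosen with earlier results of these data known. Annotation was BDGP6.54.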

Additional observations from a re-analysis of the deposited data

Results flagged for a closer look

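Levels were screened by Dixon's ratio on CPM without a log scale. Its 95% limit assumes independent normal values, so the number of flags was not set against a chance rate. Of 105 levels (35 members in 3 mutant groups), 19 had a library at 1 end of its group farther from the rest than this limit allows. Of these, 6 fell in group 3 replicate 2: GstD2 at 48.7 CPM (next highest 18.6), GstD4 at 1.90, GstD6 at 0.761, GstE1 at 97.5 (next highest 59.8), GstE7 at 42.1 and GstE8 at 12.5 CPM. Within group 3 this library was the highest for 6 of 11 delta and 4 of 14 epsilon genes and for none of the 10 others. The GstE1 level was not particular to it, as group 4 replicates 2 and 7 stood at 99.6 and 87.4 CPM without a flag.

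A further 3 fell in group 4 replicate 4, the library with ovary transcripts, with GstE13 at 33.6, GstT1 at 41.8 and GstT2 at 23.2 CPM. GstS1 was high in group 4 replicate 9, at 2016 CPM (next highest 1323), and in group 3 replicate 6, at 1165 CPM. GstD1 stood at 743.5 CPM in group 3 replicate 5 (next highest 559.7), and GstD2 at 45.8 CPM in group 2 replicate 5 (next highest 21.2). GstD3 reached 36.6 CPM in group 4 replicate 2, GstD6 reached 1.29 CPM in group 4 replicate 10 and GstD8 reached 2.51 CPM in group 2 replicate 3. GstZ2 was low in group 2 replicate 8, at 10.2 CPM, and high in group 3 replicate 1 and group 4 replicate 7, at 21.3 and 23.0 CPM.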

How the results depend on the processing

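Many of the calls against group 1 were lost with 1 or the other control left out. Without group 1 replicate 1 or 2, the number of members called was 2 to 5 in group 2 (11 with both), 4 to 6 in group 3 (13) and 4 to 7 in group 4 (10), and the F-test over Flying and MutatedFlying called 2 to 3 (12). Of 34 calls of single members, 18 were kept without replicate 1, 10 without replicate 2, 27 in models of the 2 groups alone, 31 without the 6 libraries labelled human skin, 33 without group 4 replicate 4, 33 without the filter, 32 with limma-voom and 34 each with DESeq2, RLE or total-count scaling and the stricter filter. No call of a member changed its direction. GstS1 and GstO2, which were not called, changed sign and moved by more than 1 SE with 1 control left out. GstS1 went to -0.01 and -0.16 in groups 2 and 3 without replicate 1. GstO2 went to 0.08 in both without replicate 1 and to -0.04 in group 4 without replicate 2. Sign changes within 1 SE in members not called are not listed. Among the pathway and tissue lists, an alternative chosen after seeing the data, the haemocyte gene NimC1 reversed to 0.87, 0.91 and 0.83 in groups 2, 3 and 4 without group 1 replicate 2, against -2.10, -2.06 and -2.13 without replicate 1. No member was called between mutant groups under any alternative. No paired analysis was run, because no label ties a library of group 4 to one of group 3, and the replicate numbers follow accession order. The library numbers of groups 3 and 4 alternate, but whether neighbours share parents is not stated. Members under 2 CPM had few counts, and their changes were not detectable at this depth unless large.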
